A study of Mus musculus with 3 samples.

Results

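Chromatin accessibility was measured at 38 mouse collagen genes, chosen by name as the collagens that do not build the cartilage matrix, in tdTomato+ mesenchymal progenitors (MPs) of the developing forelimb. They were 38 of the 21728 protein-coding genes on the autosomes and the X chromosome. The list rests on gene names and not on a measured threshold, although it was drawn up with earlier results of these data known. Accessibility was read by single-cell ATAC-seq (scATAC-seq), in which a transposase cuts open DNA inside single nuclei, so that cut sites pile up into peaks called open chromatin regions (OCRs). The value of a gene was the number of cut sites in OCRs that touched its body or the 2000 bp before it, in regions where each of the 3 libraries had a peak, scaled to 1000000 such cut sites on the autosomes (CPM). In that measure 37 of the 38 genes had a value in every library, as had 16383 of the 21728 protein-coding genes. The exception was Col10a1, the collagen of hypertrophic cartilage, which had no shared region and a single OCR of 2.25 CPM at E14.5. The name of the list is therefore loose at its edges, and Col27a1, a fibrillar member, was highest at E16.5 in the nuclei that carried the chondrogenic markers (below).

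The 3 libraries, 1 for each of the stages E12.5, E14.5 and E16.5, came from embryos homozygous for both alleles of the lineage label, Hic1CreERT2/CreERT2 and Rosa26LSLtdTomato/tdTomato, on the C57BL/6J strain. Each dam had received 7.5 mg of tamoxifen by gavage, in 300 uL of oil, on embryonic day 10, and no library lacked the alleles or the drug. Cre was driven from Hic1, so a sorted cell is a descendant of a cell that used this gene around the time of tamoxifen, whatever it uses at collection, and the study's methods describe limb pairs pooled for digestion at E12.5. The E16.5 library held only the segment around the elbow, whereas the earlier libraries were of embryonic forelimb, and per the study's methods Dispase was used for the youngest limbs and a different enzyme mixture for the later ones. Stage and library cannot be told apart in this design, nor can stage and digestion between E12.5 and the later libraries, nor stage and limb segment between E16.5 and the earlier ones. With 1 library per stage there is no replicate check: the differences below are between libraries, no test was made, and the 95% intervals (exact Poisson for a level, exact binomial for a ratio, on fragments) cover counting error only.

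Collagens are trimers of long helical chains that give tissues their scaffold. Fibrillar types I, III and V co-assemble into the striated fibrils of dermis, tendon and bone, the FACIT types (fibril-associated collagens with interrupted helices) decorate those fibrils, type IV forms the sheet of basement membranes, type VI forms beaded microfibrils around cells, and the membrane-bound types have a stretch that crosses the cell membrane. In limb mesenchyme the fibroblast, tendon and bone-forming lineages are the main makers of types I, III, V and VI, and these genes are standard marks of maturing fibroblasts. OCRs show where the DNA is open, not how much transcript is made.

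The libraries differed widely in depth. From the youngest to the oldest they held 8294, 20023 and 14048 nuclei, and the median nucleus had 6003.5, 8575 and 26694 cut sites in peaks. The limb mesenchyme markers (Prrx1, Twist1, Tbx5, Pdgfra, Hic1 and Osr1, 6 of 6 with counts) summed to 691, 718 and 711 CPM. Other lists differed between stages as the collagens did or against them. The fibrogenic markers (8 of 9 with counts) summed to 218, 249 and 404 CPM and the pericyte markers (6 of 6) to 245, 264 and 321 CPM. The chondrogenic markers (8 of 8) summed to 783, 531 and 467 CPM and the tenogenic (7 of 7) to 393, 259 and 259 CPM. Cspg4 held 74.3, 89.5 and 143 CPM of the pericyte sums. Sox5 and Sox6 carried the chondrogenic difference, with 149, 146 and 139 CPM for the other 6 markers, and Scx the tenogenic one, with 253, 233 and 242 CPM for the other 6. The part of cell make-up in the collagen values was not tested. Markers of other cell types were not absent: summed over their lists, 4 of 5 myogenic markers gave 116, 72.4 and 83.9 CPM, 5 of 6 endothelial markers 121, 122 and 151 CPM, 6 of 7 epithelial markers 149, 98.9 and 125 CPM, and 4 of 5 blood markers 107, 109 and 92.9 CPM. Myf5, Emcn, Krt5 and Gata1, and the bone markers Ibsp, Spp1 and Bglap, had no shared OCR, and the study's methods describe a sort that removed cells with CD31, CD45, CD117, CD11b, F4/80 or Ter119, markers of endothelial and blood cells. The part of other cells in the collagen values was not tested except where a cluster is left out below. Between libraries 213 (E12.5 and E14.5), 401 (E14.5 and E16.5) and 151 (E12.5 and E16.5) cell barcodes were shared, 6 of them by all 3 libraries.

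The sequences below are of the OCRs on which the results turn, each as the 300 bases (150 for a promoter) of the mm10 assembly around the centre of the narrowest peak of the region, on the plus strand, in lower case. Capitals mark every match, on either strand, to 8 motifs: AP-1 (TGANTCA), RUNX (TGTGGTT), TEAD (GGAATG), 2 E-boxes (CAGCTG and CAGATG), NFI, CCAAT and the GC box GGGCGG. No motif of this set contains another, although an NFI match can overlap CCAAT. The first set is shown because these OCRs were highest in the same kind of nuclei at 2 stages, those with the dermal fibroblast markers (and the bone markers Alpl and Runx2). The Col4a1 window lies in an intron 47.4 kb from the gene's start and holds an AP-1 match, the Col5a3 window lies in an intron at 24.5 kb and holds CCAAT, and the Col14a1 window, in a region at 109.6 kb that reaches an exon, holds a RUNX match and an E-box.
Col4a1, chr8:11265421-11265720: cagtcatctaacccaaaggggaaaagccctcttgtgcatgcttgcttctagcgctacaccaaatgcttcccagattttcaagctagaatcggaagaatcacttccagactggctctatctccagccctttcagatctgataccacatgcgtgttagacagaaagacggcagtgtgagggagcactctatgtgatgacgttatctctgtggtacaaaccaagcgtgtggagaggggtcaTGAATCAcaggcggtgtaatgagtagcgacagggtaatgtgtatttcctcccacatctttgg
Col5a3, chr9:20790354-20790653: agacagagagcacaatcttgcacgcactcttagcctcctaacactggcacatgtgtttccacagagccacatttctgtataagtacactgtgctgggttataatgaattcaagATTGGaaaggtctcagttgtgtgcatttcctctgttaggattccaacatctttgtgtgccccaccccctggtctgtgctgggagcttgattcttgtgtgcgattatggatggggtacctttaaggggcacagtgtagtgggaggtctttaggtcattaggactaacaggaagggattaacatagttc
Col14a1, chr15:55415911-55416210: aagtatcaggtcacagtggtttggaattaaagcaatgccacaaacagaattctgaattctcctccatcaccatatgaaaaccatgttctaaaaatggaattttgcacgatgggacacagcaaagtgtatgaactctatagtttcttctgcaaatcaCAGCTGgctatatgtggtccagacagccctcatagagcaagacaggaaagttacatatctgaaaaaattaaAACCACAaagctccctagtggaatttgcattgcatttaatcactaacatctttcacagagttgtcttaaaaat

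The second set is from OCRs that were highest, at E16.5, in the nuclei with the tendon markers. The Col22a1 window is in an intron 106.9 kb from the start and holds AP-1, TEAD and CAGATG matches, whereas the Col25a1 window, in an intron at 357 kb, holds none of the 8 motifs.
Col22a1, chr15:71927249-71927548: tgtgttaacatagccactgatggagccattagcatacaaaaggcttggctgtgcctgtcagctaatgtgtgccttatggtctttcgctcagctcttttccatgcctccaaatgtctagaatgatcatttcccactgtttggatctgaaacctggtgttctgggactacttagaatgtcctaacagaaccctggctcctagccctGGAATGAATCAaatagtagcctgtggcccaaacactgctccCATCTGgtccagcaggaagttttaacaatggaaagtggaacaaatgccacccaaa
Col25a1, chr3:130488944-130489243: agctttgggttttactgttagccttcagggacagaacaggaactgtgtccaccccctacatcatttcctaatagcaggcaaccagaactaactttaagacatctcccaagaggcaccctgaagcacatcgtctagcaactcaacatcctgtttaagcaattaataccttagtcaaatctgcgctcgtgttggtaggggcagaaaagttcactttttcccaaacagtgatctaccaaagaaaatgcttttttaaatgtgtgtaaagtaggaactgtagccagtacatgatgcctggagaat

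The third set is from OCRs with wide differences in counts between E12.5 and E16.5, among those with at least 5 CPM at either stage. The Col5a2 and Col6a6 regions were higher at later stages, lie 82.8 and 126 kb from the starts of their genes and reach an exon outside the window, and the Col25a1 region, in an intron at 172 kb, was lower. The Col5a2 window holds CAGATG and CCAAT, the Col6a6 window holds no match and the Col25a1 window holds TEAD.
Col5a2, chr1:45419851-45420150: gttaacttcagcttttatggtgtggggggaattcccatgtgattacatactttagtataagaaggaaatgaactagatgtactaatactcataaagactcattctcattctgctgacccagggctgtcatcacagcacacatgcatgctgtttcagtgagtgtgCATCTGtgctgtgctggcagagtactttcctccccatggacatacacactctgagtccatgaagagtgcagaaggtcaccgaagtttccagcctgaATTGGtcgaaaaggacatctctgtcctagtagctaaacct
Col6a6, chr9:105700711-105701010: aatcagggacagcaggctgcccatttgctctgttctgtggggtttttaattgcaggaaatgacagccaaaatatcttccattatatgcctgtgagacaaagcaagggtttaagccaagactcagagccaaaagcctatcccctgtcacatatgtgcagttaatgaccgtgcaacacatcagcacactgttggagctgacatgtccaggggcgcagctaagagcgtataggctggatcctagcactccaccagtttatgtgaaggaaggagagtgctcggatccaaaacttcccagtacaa
Col25a1, chr3:130303554-130303853: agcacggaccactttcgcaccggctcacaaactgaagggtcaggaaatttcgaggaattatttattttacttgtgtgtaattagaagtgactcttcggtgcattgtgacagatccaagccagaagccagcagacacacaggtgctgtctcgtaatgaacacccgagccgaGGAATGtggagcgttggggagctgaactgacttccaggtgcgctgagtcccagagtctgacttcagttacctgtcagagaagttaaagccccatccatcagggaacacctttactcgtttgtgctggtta

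The last 2 sequences are the 150 bases before the start of Col3a1, a gene with a wide difference between stages, and of Col7a1, whose only shared region is this one. They are from the RefSeq promoter table (GRCm38.p6), which held promoters for 31 of the 38 genes. Col1a1, Col4a3, Col5a2, Col12a1, Col14a1, Col22a1 and Col26a1 were not among them. Col3a1 carries a CAGATG match and no GC box, and Col7a1 carries a GC box.
Col3a1, chr1:45311388-45311537: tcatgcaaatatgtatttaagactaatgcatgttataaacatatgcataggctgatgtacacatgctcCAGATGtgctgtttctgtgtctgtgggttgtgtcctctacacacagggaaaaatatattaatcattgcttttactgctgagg
Col7a1, chr9:108953436-108953585: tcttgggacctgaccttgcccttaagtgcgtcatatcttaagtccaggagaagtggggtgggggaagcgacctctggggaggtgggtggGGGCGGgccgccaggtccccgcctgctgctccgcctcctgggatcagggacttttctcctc

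Read as counts, the collagen genes as a set were higher at E16.5 than before. From E12.5 to E16.5, 12 of 37 were at least 1.5-fold higher, against 7.31% of all protein-coding genes, and 2 were at least 1.5-fold lower, against 8.61%. The median log2 ratio was 0.43, where that of all genes was 0.00, and 26 of the 37 ratios were above 0. Most of the difference lay between E14.5 and E16.5, where 13 genes were higher (7.28% of all genes) and 0 lower (5.44%), and the medians were 0.37 and -0.18. In the earlier step, E14.5 over E12.5, 2 genes were higher (Col5a2 and Col6a6; 7.36% of all genes) and 5 lower (Col4a4, Col6a4, Col19a1, Col25a1 and Col28a1; 7.4%), and the median was -0.04 against 0.15. Over the same libraries the summed fibrogenic markers were also highest at E16.5, and 6 of the 8 with counts were at least 1.5-fold higher than at E12.5. In all, 19 collagen genes were 1.5-fold or more apart between some pair of stages, against 27.1% of all genes.

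The called width of the OCRs moved with this difference. At the collagen genes the summed width of the shared peaks was larger at E16.5 than at E12.5 by a median log2 ratio of 0.49, against 0.15 for all genes, and 15 of 37 were at least 1.5-fold wider (11.5% of all genes). Between E14.5 and E16.5, 31 of 37 were wider (43.4%). Divided by called width, the collagen median of E16.5 over E12.5 was -0.16, next to -0.19 for all genes, with 2 genes higher (Col5a3 and Col7a1; 1.6%) and 2 lower (Col19a1 and Col6a2; 11.8%). Taken relative to that all-gene median, 4 genes were higher per kb (Col5a3, Col7a1, Col6a6 and Col6a4; 3.61%) and 1 lower (Col6a2; 5.33%). In promoter peaks, which 34 of the genes had, the median was near 0 (0.0065), but 10 genes were higher (6.07%) and 4 lower (8.16%). In peaks of matched position 4 of 32 were higher (4.26%) and 2 lower (8.39%), in the binarised matrix (1 per nucleus and peak) 11 higher (6.11%) and 1 lower (6.79%), and with all of each library's own OCRs 22 higher (10.6%) and 3 lower (7.85%). Per kb, 1 of the 7 genes called in the earlier step and 0 of the 13 called between E14.5 and E16.5 stayed past 1.5-fold in their direction. Beside all genes, the collagen genes thus differed more in called width than in counts per kb. Width was called by the peak caller on each library, at different depths, and the part of depth in it was not tested.

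**Figure D1:**
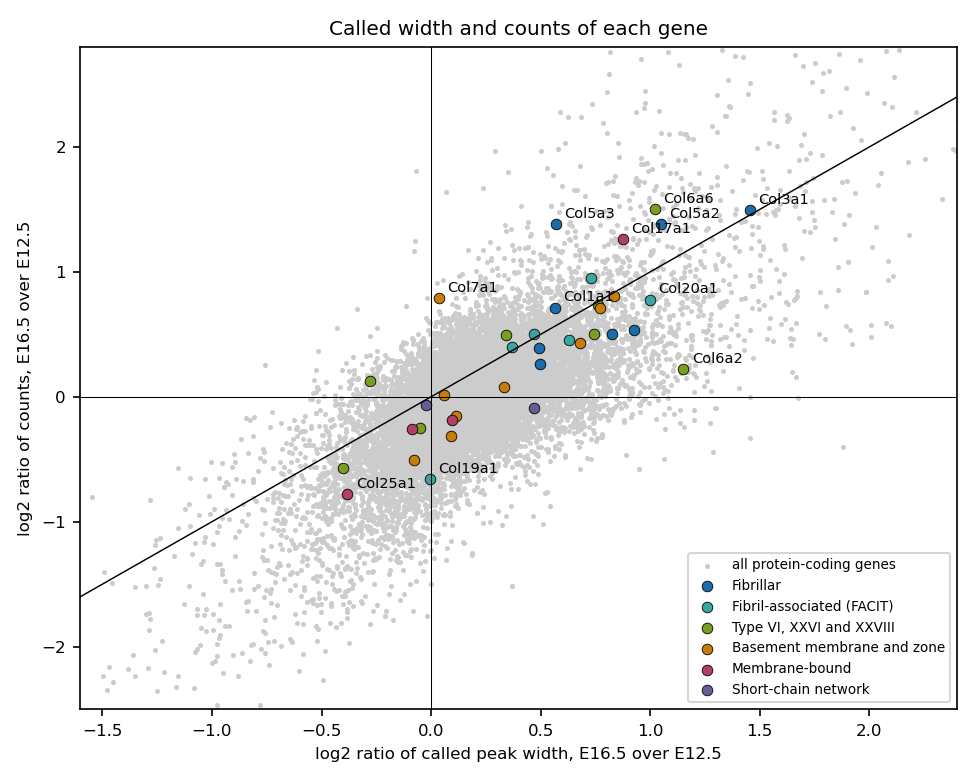
The log2 ratio of called peak width (x) is plotted against the log2 ratio of counts (y), E16.5 over E12.5, with collagen genes coloured by group over all protein-coding genes in grey (points beyond the axes are not drawn) and the line where both are equal. Col5a3, at 0.57 in width and 1.38 in counts, and Col7a1, at 0.03 and 0.79, lie well above the line, Col3a1 at 1.46 and 1.49 lies on it, and Col6a2 at 1.15 and 0.22 lies well below it.

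In counts, the fibrillar collagens were the group most uniformly higher at E16.5. All 8 had a log2 ratio of E16.5 over E12.5 above 0 (0.26 to 1.49, median 0.62). Of them 4, Col1a1, Col3a1, Col5a2 and Col5a3, passed 1.5-fold, against 7.31% of all genes. Per kb of called width the group median was -0.03, with ratios above 0 for these 4 genes (0.04 to 0.81) and below 0 for Col1a2 (-0.24), Col5a1 (-0.33), Col24a1 (-0.10) and Col27a1 (-0.39). Col3a1, the chain of the thin fibrils of skin and embryonic connective tissue, was at 63.1, 67.3 and 178 CPM in order of stage, as values are given throughout. The first 2 libraries were close and the third was higher, with a log2 ratio of 1.49 (1.43 to 1.55), and the counting intervals of the levels (60.6 to 65.7, 65.7 to 68.9 and 176 to 179.6 CPM) set the third library apart. Its promoter OCRs were at 42.2, 43.1 and 109 CPM, a log2 ratio of 1.36, but per kb of called width the ratio was 0.04. The region at chr1:45346891-45359692, which reaches the end of the gene and beyond, went from 4.90 and 2.49 to 52.4 CPM while its called width went from 1819 and 643 to 12802 bases.

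Col5a2 and Col5a3, chains of the type V collagen that sets fibril diameter, followed different courses. Col5a2 was higher at each stage, at 41.3, 68.4 and 108 CPM, with a log2 ratio of 1.38 (1.31 to 1.46) that was 0.82 at the promoter and 0.33 per kb. The region with the most counts, around the start, was at 22.1, 30.5 and 38.9 CPM, and chr1:45419402-45421545, shown above, was at 1.09, 7.15 and 29.7 CPM. Of the 8 regions of Col5a2, 6 were at least 1.5-fold higher and 0 lower. Such counts stand here and below beside 26.5% higher and 25.8% lower over all autosomal shared regions. Col5a3 was at 20.2, 24.0 and 52.7 CPM, with a log2 ratio of 1.38 (1.27 to 1.49), 1.47 at the promoter and 0.81 per kb, so that it passed 1.5-fold in each of these 3 measures. Each of its 4 shared regions was at least 1.5-fold higher, from the promoter (5.61, 9.79 and 15.5 CPM) to the intronic chr9:20790084-20791029 shown above (1.95, 4.76 and 7.79 CPM). Col5a1, the chain common to most type V trimers, was at 161, 177 and 227 CPM, a log2 ratio of 0.50. Its promoter region, chr2:27885131-27892528, held the most counts and differed little, at 91.1, 107 and 98.7 CPM. By contrast 7 of the 13 Col5a1 regions were at least 1.5-fold higher and 0 were lower, and the intronic chr2:27956227-27957963 was at 0.24, 2.77 and 6.82 CPM.

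Type I collagen, the main protein of bone, tendon and dermis, is made from the chains of Col1a1 and Col1a2. Col1a1 was at 126, 124 and 207 CPM, so E16.5 stood above both earlier libraries, with a log2 ratio of 0.71 (0.67 to 0.76). The gene lay inside 1 shared region, chr11:94932788-94956744, which held 8 peaks in the first library, 7 in the second and a single peak of 23899 bases in the third. Counts per kb differed by 0.15. In the binarised matrix, where a peak counts once per nucleus, Col1a1 was instead lower at E16.5 than at both earlier stages. Col1a2 was at 46.9, 51.2 and 56.1 CPM, a log2 ratio of 0.26 (0.18 to 0.33). That value leaves out 14 OCRs called at Col1a2 in the E16.5 library alone, with 84.0 CPM between them, where E12.5 had none outside the shared region and E14.5 had 1 of 0.18 CPM. With every library's own OCRs counted, the ratio for Col1a2 was 1.58. Compared per kb of gene and upstream sequence, Col1a1 had the highest level of the 37 genes in each library, at 6.72, 6.61 and 11.0 CPM per kb, followed at E16.5 by Col3a1 at 4.42 CPM per kb. The other 2 fibrillar genes had ratios under 1.5-fold, with Col24a1 at 114, 124 and 149.7 CPM and Col27a1 at 172, 191 and 249 CPM. Within Col27a1 the difference was uneven: 8 of 14 regions were higher and 2 lower, and chr4:63310025-63312208, in an intron, was at 0.78, 2.88 and 15.3 CPM.

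**Figure D2:**
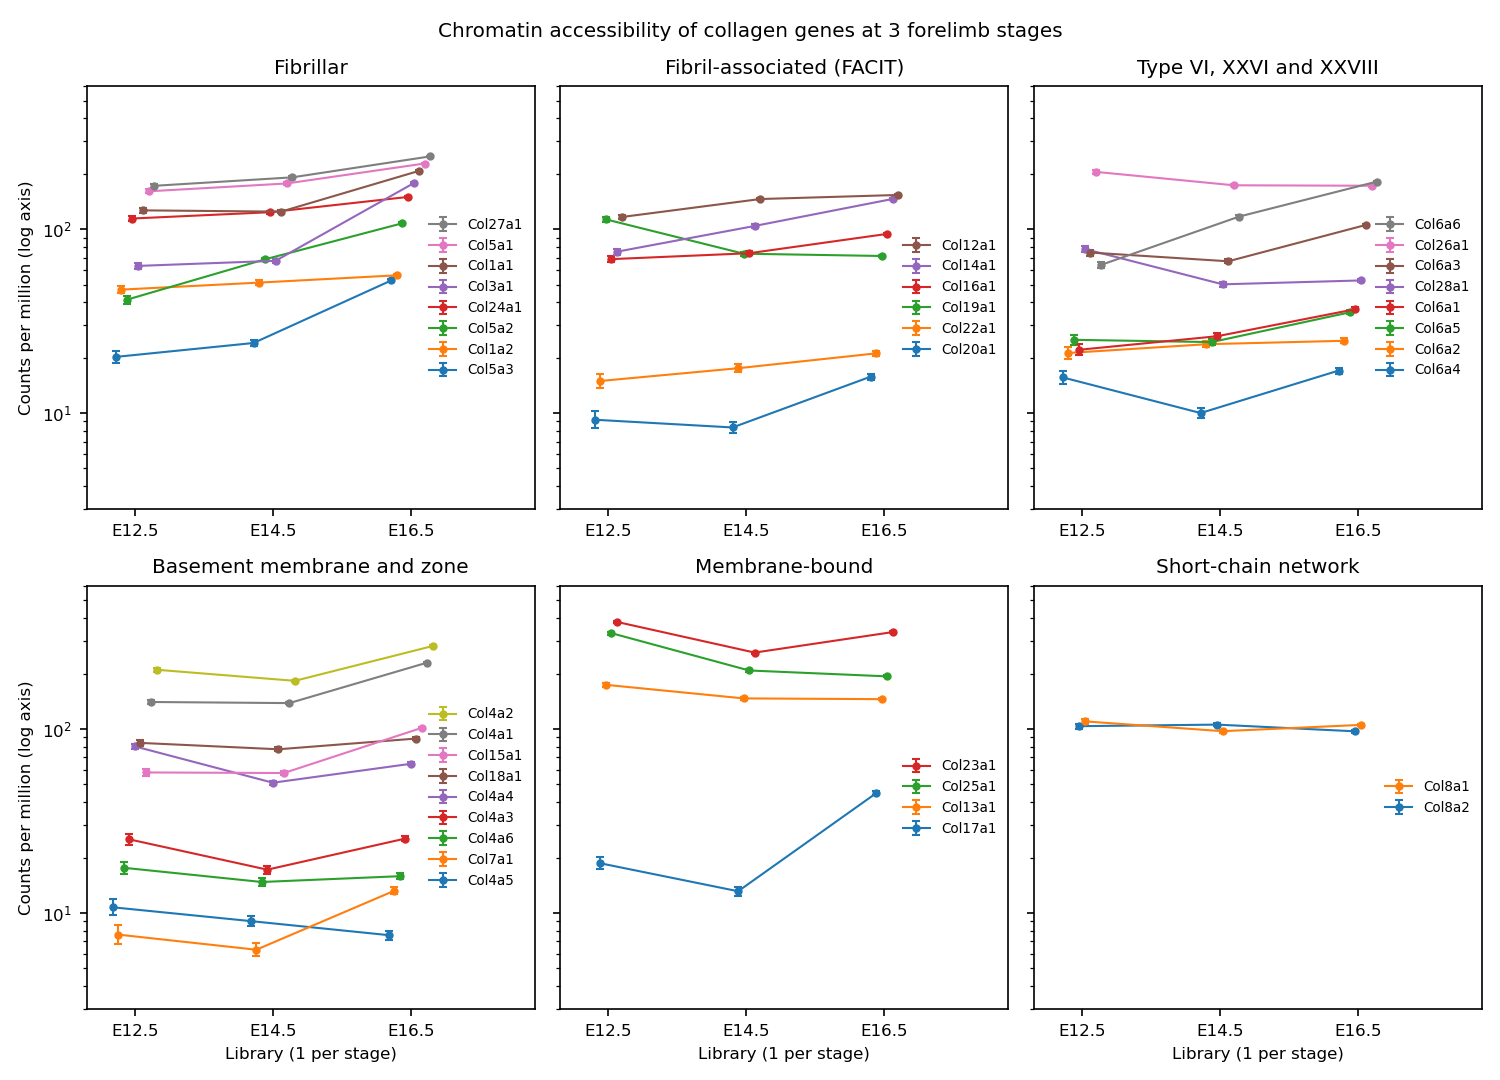
Each panel is a collagen group and shows the CPM of each gene (log axis) in the 3 libraries, with 95% Poisson intervals for counting error. Col3a1 and Col5a3 are near level at the first 2 stages and higher at E16.5, at 178 and 52.7 CPM, Col5a2 and Col6a6 are higher at each stage, and Col25a1 is lower at each stage, from 332 to 193 CPM.

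The FACIT genes were split. Of 6, Col14a1 and Col20a1 were at least 1.5-fold higher at E16.5 than at E12.5 (7.31% of all genes) and Col19a1 was lower (8.61%). The median log2 ratio was 0.48. Col14a1, which binds the surface of fibrils in skin and tendon, was higher at each stage, at 75.4, 104 and 146 CPM, with a log2 ratio of 0.95 (0.90 to 1.01), 0.66 at the promoter and 0.22 per kb. Of the 13 regions of Col14a1, 9 were higher and 1 lower by 1.5-fold. The promoter region held the most counts, at 21.8, 30.4 and 34.5 CPM, and chr15:55467638-55469352 had the largest ratio, at 0.59, 4.25 and 6.97 CPM. Col14a1 also had 34 OCRs outside the shared regions at E16.5, with 157 CPM between them. Col12a1, the FACIT of tendon and fascia, was at 116, 146 and 153 CPM, a log2 ratio of 0.40. Its promoter OCRs were near level at 93.8, 88.2 and 98.3 CPM, and the difference came from regions in the gene body such as the intronic chr9:79688885-79691176, at 3.11, 12.2 and 15.2 CPM. Col22a1, a collagen of the muscle-tendon junction, was at 14.9, 17.5 and 21.1 CPM, a log2 ratio of 0.50 (0.37 to 0.63) that was -0.15 at the promoter. That value leaves out 13.4 CPM in 7 OCRs outside the shared regions at E12.5, and 3.37 and 4.92 CPM at the later stages. With these counted, Col22a1 was not higher at E16.5 than at E12.5. Of the 4 shared regions of Col22a1 only chr15:71926561-71928172 was 1.5-fold higher, at 3.58, 7.88 and 10.9 CPM.

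Col19a1, a FACIT first known from muscle, was at 113, 73.5 and 71.5 CPM, highest in the first library, with a log2 ratio of -0.66 (-0.71 to -0.61). The value was also -0.66 per kb, -0.59 in peaks of matched position and -0.55 at the promoter. Its region at chr1:24548960-24550934 was at 27.4, 11.5 and 7.93 CPM with nearly the same called width (1975, 1583 and 1728 bases). Col16a1 was at 68.7, 74.0 and 94.2 CPM, a log2 ratio of 0.46. Col20a1 was among the lowest, at 9.20, 8.35 and 15.8 CPM, with a log2 ratio of 0.78 in counts and -0.22 per kb. Its region at the start held 3.55, 0.38 and 8.74 CPM, and 15.8 CPM at E16.5 is the sum of that and of one further region at 7.02 CPM.

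Type VI collagen, the microfibril around cells, is built from the chains of Col6a1 and Col6a2 with one of the longer chains from Col6a3, Col6a4, Col6a5 or Col6a6. Between E12.5 and E16.5, Col6a6 and Col6a1 were the 2 genes past 1.5-fold. Col6a6 was at 64.0, 117 and 182 CPM, higher at each stage, with a log2 ratio of 1.504 (1.44 to 1.57), the largest of the 37 genes though within the counting interval of Col3a1, 1.22 at the promoter and 0.48 per kb. The widest differences were in a pair of its regions: chr9:105700209-105703168 was at 1.15, 25.95 and 30.9 CPM and chr9:105731458-105733101 at 3.27, 18.4 and 30.1 CPM. Both were already high at E14.5. Of the 12 regions of Col6a6, 9 were higher by 1.5-fold and 1 was lower. The neighbouring Col6a5 was at 25.02, 24.3 and 35.3 CPM (log2 ratio 0.50) and Col6a4 at 15.6, 10.0 and 17.02 CPM (0.12). In counts, only Col6a6 of these 3 genes on chromosome 9 was higher at E14.5 than at E12.5. Per kb of called width minus the all-gene median, all 3 were above 0, with Col6a6 at 0.24, Col6a5 at 0.11 and Col6a4 at 0.048. The Col6a4 region with the most counts, the intronic chr9:106005412-106006444, was at 3.65, 3.94 and 7.79 CPM.

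Col6a3, the long chain of most type VI microfibrils, was at 74.6, 66.9 and 105 CPM, a log2 ratio of 0.50 in counts and -0.24 per kb. Its promoter OCRs went from 22.4 and 28.7 to 74.8 CPM, but the E16.5 value comes from a single wide peak, and the whole region around the start was at 41.9, 51.2 and 74.8 CPM. Col6a1 was at 22.1, 26.2 and 36.7 CPM, with a log2 ratio of 0.73 (0.63 to 0.84) in counts and -0.03 per kb. Its promoter region chr10:76724081-76727228 was at 17.9, 26.2 and 30.9 CPM. Col6a2, its neighbour on chromosome 10, was at 21.2, 23.7 and 24.7 CPM, a log2 ratio of 0.22 that was -0.93 per kb, while 6 further OCRs of 33.8 CPM in total were called at Col6a2 at E16.5. Col28a1 and Col26a1, related genes with von Willebrand and EMI domains, were lower after E12.5, at 78.0, 50.1 and 52.6 CPM and at 205, 173 and 172 CPM. At Col28a1 the intronic regions chr6:8177420-8179389, with the most counts, and chr6:8100801-8102144, with the widest ratio, were at 15.2, 10.2 and 5.98 CPM and at 13.7, 3.84 and 0.66 CPM. Over the 8 genes of this group 2 passed 1.5-fold upward (7.31% of all genes) and none downward (8.61%) between E12.5 and E16.5. The group's median log2 ratio was 0.36.

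The basement membrane genes were mixed. Between E12.5 and E16.5, 3 of 9 were at least 1.5-fold higher (Col4a1, Col7a1 and Col15a1, against 7.31% of all genes) and none lower (8.61%). Their median log2 ratio was 0.08. Col4a1 and Col4a2, whose chains form the ubiquitous type IV trimer, start head to head from 1 shared promoter region, chr8:11309534-11314749. That region was at 50.1, 58.3 and 46.9 CPM, slightly lower at E16.5 than at E12.5. The genes as a whole were higher at E16.5, Col4a1 at 140.2, 138 and 229.6 CPM with a log2 ratio of 0.71 (0.67 to 0.75), and Col4a2 at 209.8, 183 and 283 CPM with a log2 ratio of 0.43 (0.40 to 0.46). The difference therefore lay in the gene bodies: 10 of 14 regions of Col4a1 and 9 of 16 of Col4a2 were higher and none lower by 1.5-fold. The widest ratios were at the intronic Col4a1 region chr8:11283387-11285740, with 0.47, 1.74 and 5.62 CPM, and at the Col4a2 region chr8:11403766-11406698, with 4.12, 5.80 and 21.9 CPM. Per kb of called width the ratios were -0.06 and -0.25.

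In shared regions the type IV chains of specialised membranes were lower or level at E16.5 beside E12.5. Col4a3 and Col4a4, which also share a start, were at 25.1, 17.2 and 25.4 CPM and at 80.4, 51.0 and 64.7 CPM, both lowest at E14.5 in counts. Per kb of called width both were instead higher at E14.5 than at E12.5. Relative to the all-gene median per kb they were lower, at -0.31 and -0.44. Within Col4a4 the intronic chr1:82475985-82477457, which held the most counts, was at 45.2, 26.3 and 25.5 CPM, while chr1:82485095-82487039 was at 2.42, 8.19 and 12.9 CPM. Col4a5 and Col4a6, paired on the X chromosome, were at 10.7, 9.02 and 7.57 CPM and at 17.6, 14.7 and 15.8 CPM. At Col4a6 a further 3.77, 0 and 19.2 CPM lay outside the shared regions. With these counted, Col4a6 was higher at E16.5 than at both earlier stages. Per kb of gene and upstream sequence Col4a5 was the lowest of the 37 genes in each library, at 0.050, 0.042 and 0.035 CPM per kb. Both X genes are scaled to autosomal cut sites, and the study used embryos of both sexes without distinction. The part of embryo sex in their levels was not tested. Col7a1, the anchoring fibril that ties epidermis to dermis, had 1 shared region, at its start, with 7.62 (6.76 to 8.56), 6.31 (5.82 to 6.83) and 13.2 (12.6 to 13.8) CPM. The log2 ratio of 0.79 (0.61 to 0.98) came with almost the same called width at E12.5 and E16.5 (1880 and 1925 bases), so it was 0.76 per kb.

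Col15a1 and Col18a1, the basement membrane zone collagens whose ends give restin and endostatin, parted. Col15a1 was at 58.0, 57.6 and 101 CPM, with a log2 ratio of 0.81 (0.74 to 0.87), but its promoter region chr4:47207615-47209517 was lower at E16.5, at 22.0, 19.6 and 13.3 CPM (-0.73). Of the 10 regions of Col15a1, 7 were higher, among them chr4:47292650-47294813 at 2.648, 1.56 and 15.0 CPM, and per kb the whole gene was at -0.03. Col18a1 was nearly level at 84.0, 77.5 and 88.7 CPM, a log2 ratio of 0.08 (0.02 to 0.13). Its main region, the intronic chr10:77130033-77133076, was at 28.8, 27.4 and 28.3 CPM, and the widest ratio was at chr10:77097459-77099053, with 2.36, 2.36 and 8.23 CPM.

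Of the 4 membrane-bound collagens 3 were highest at E12.5. Col25a1, a muscle collagen needed for motor innervation, was at 332, 208 and 193 CPM, with a log2 ratio of -0.78 (-0.81 to -0.75) that was the lowest of the 37, -0.71 at the promoter and -0.40 per kb. Its promoter region was at 65.6, 61.4 and 41.2 CPM. Of its 35 regions 24 were lower and 3 higher. The intronic chr3:130160734-130162666 was at 25.6, 6.66 and 2.06 CPM and chr3:130303082-130304193, shown above, at 11.9, 1.93 and 0.93 CPM, whereas chr3:130368953-130371125 was at 2.93, 14.2 and 19.1 CPM. So Col25a1 too held a few OCRs that ran against the rest. Col23a1 had the most counts of the 37 genes in each library, at 382, 260.2 and 336 CPM over 296 kb, with 10 of 34 regions higher and 11 lower, close to the shares of all regions, and Col13a1 was at 174, 147 and 145 CPM.

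Col17a1, the hemidesmosome collagen of keratinocytes, was the exception in that group, at 18.6, 13.1 and 44.7 CPM, a log2 ratio of 1.26 (1.15 to 1.38) and 0.39 per kb. It had no promoter OCR in the shared regions, and each of its 4 regions was at least 1.5-fold higher at E16.5 than at E12.5, the main one, chr19:47658584-47660615, at 10.5, 9.02 and 16.4 CPM. The study's methods report contaminating epithelial cells in its E16.5 single-cell RNA data, and the part of such cells in the Col17a1 value was not tested. The summed epithelial markers of the whole library were at 149 CPM at E12.5 and 125 CPM at E16.5. Of these markers, in shared regions, Krt8 was higher (14.9 and 24.4 CPM), Trp63 was level, and Cdh1 (60.4 and 40.3 CPM), Krt14, Krt18 and Epcam were lower. With each library's own OCRs Krt14 (5.80 and 8.02 CPM), Krt5 (2.35 and 6.79 CPM) and Trp63 (59.5 and 66.0 CPM) were higher at E16.5, as was Krt8. Cdh1 (76.3 and 53.4 CPM), Krt18 and Epcam (17.6 and 13.4 CPM) stayed lower. Without the E16.5 cluster highest in those markers (described below), which left each of the 14 genes past 1.5-fold between E12.5 and E16.5 (7.09% of all genes higher and 9.13% lower), Col17a1 was at 42.4 CPM and the log2 ratio was 1.19. The short-chain network collagens of blood vessels and cornea were level, with Col8a1 at 110.0, 97.3 and 105 CPM and Col8a2 at 104, 106 and 97.1 CPM.

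**Figure D3:**
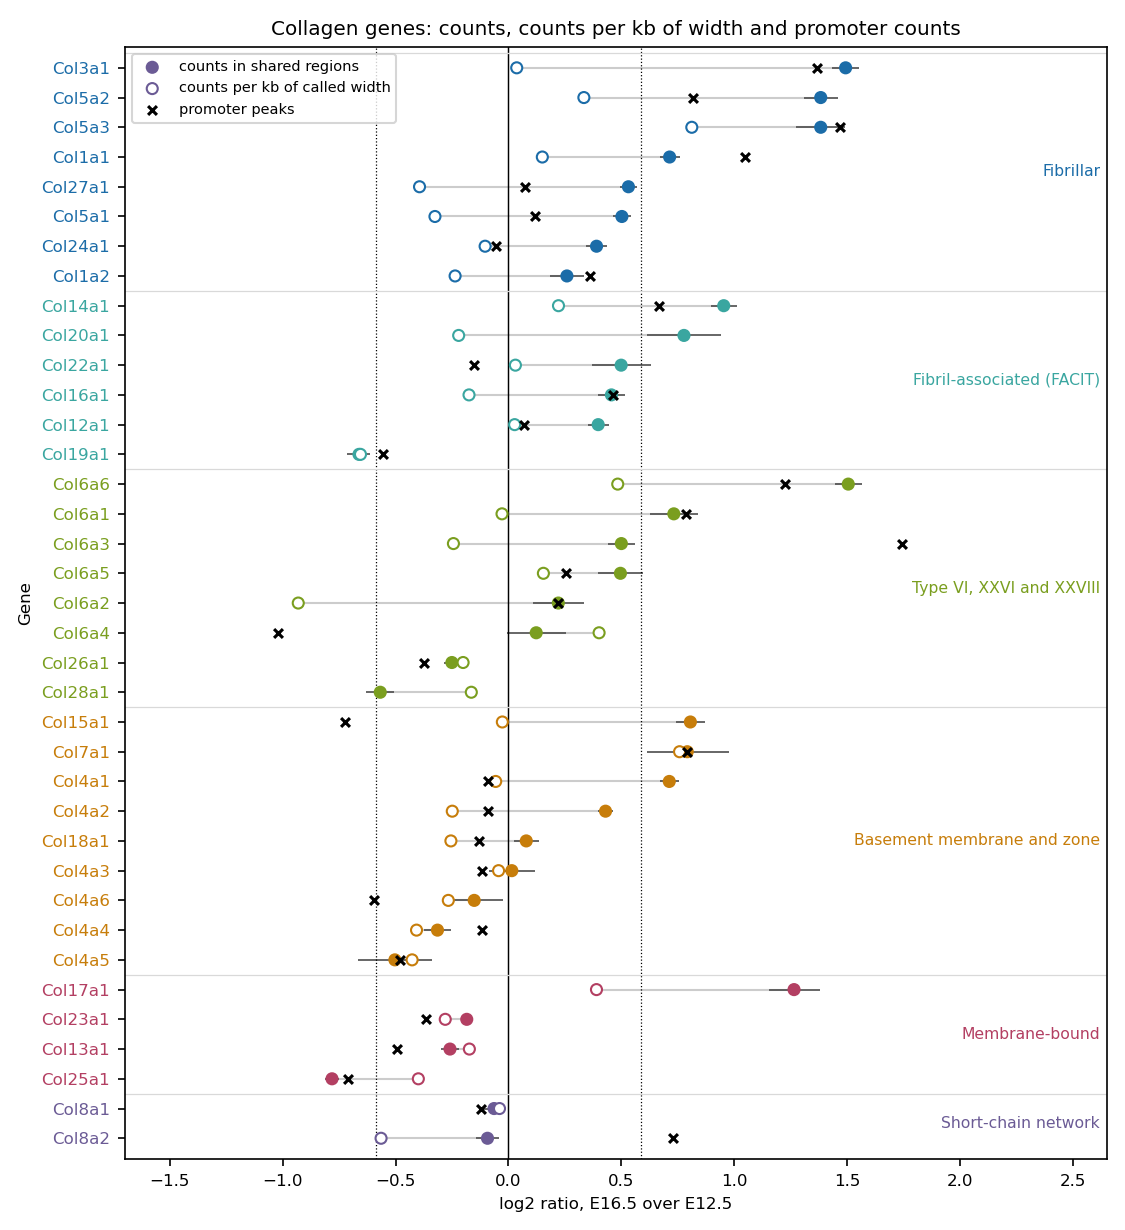
The log2 ratio of E16.5 over E12.5 is drawn for each gene, by group, in counts (filled, with the 95% counting interval), in counts per kb of called width (open) and in promoter peaks (cross), with dotted lines at 1.5-fold. Col5a3 and Col7a1 stay beyond 1.5-fold in all 3 measures, while the open points of Col3a1 (0.04) and Col4a1 (-0.06) lie at the zero line. For Col7a1 the counts and the promoter peaks come from its only shared region, so they are not separate measures.

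Over single regions the same contrast between count and width was seen. The 37 genes held 336 distinct shared regions, of which 223 lay in introns, 109 overlapped an exon of the gene and 4 lay upstream. Between E12.5 and E16.5, 41.1% of them were at least 1.5-fold higher (26.5% of all autosomal shared regions) and 24.1% lower (25.8%). In the 169 regions whose called widths were within 1.5-fold, 34 were higher, or 20.1%, against 12.5% of all such regions, and 42 were lower, or 24.9%, against 23.4%. The higher share was thus smaller where width was alike but still above that of all regions.

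**Figure D4:**
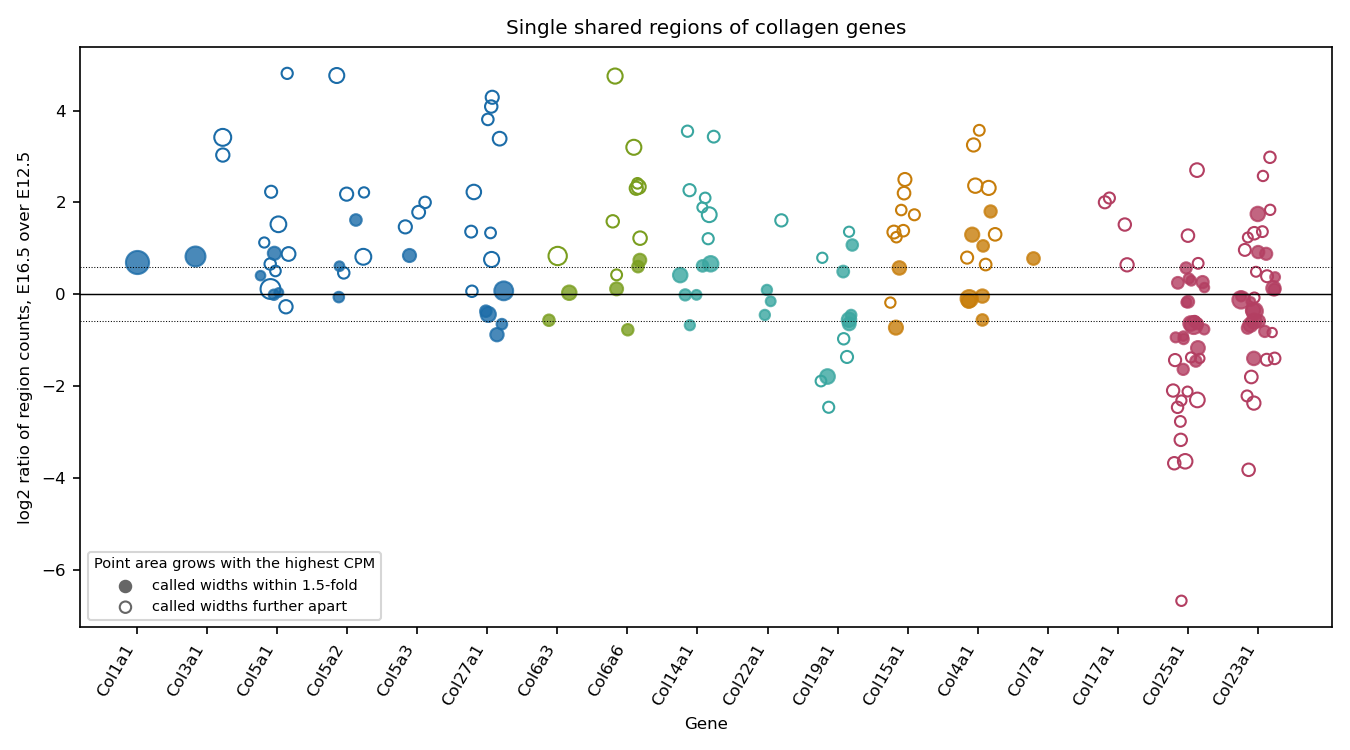
Each point is a shared region of 1 of 17 collagen genes, placed by its log2 ratio of counts, E16.5 over E12.5, with point area growing with its highest CPM. Filled points have called widths within 1.5-fold and open points do not, and the regions of Col25a1 lie mostly below 0 (24 of 35 at least 1.5-fold lower) while those of Col6a6 lie mostly above (9 of 12 at least 1.5-fold higher).

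Differences between nuclei of 1 library do not carry the doubts about stage. The nuclei of each library were split into 6 clusters from autosomal OCRs more than 100000 bp away from any collagen or marker gene, so the collagen regions themselves took no part. The clusters are called by number, with the markers that were highest in them. At E16.5, cluster 4 (2124 nuclei) was highest in 8 of 8 chondrogenic markers, cluster 5 (1299) in 5 of 7 tenogenic markers, cluster 3 (2182) in 6 of 9 dermal fibrogenic markers, and cluster 2 (3526) in 4 of 9 fibrogenic markers (8 of which had counts). Cluster 6 (1296) was highest in 5 of 7 epithelial, 4 of 5 perineural and 3 of 5 Schwann markers and is not given a type. Its limb mesenchyme sum was 449.97 CPM against 668 to 786 CPM elsewhere, although Hic1, a gene of that list, was highest in it. Cluster 1 (3621) was highest in no comparable share of a list, with Cd34 and Clec3b its fibrogenic markers. Its fibrogenic sum was 469 CPM, next to 500 CPM in cluster 2 and at most 361 CPM elsewhere. At E14.5, cluster 5 (2611) was highest in 8 of 9 dermal fibrogenic markers and cluster 4 (3425) in 7 of 8 chondrogenic and 4 of 7 tenogenic markers. Cluster 3 (3458) of that library was highest in 4 of 9 fibrogenic markers, with a sum of 287 CPM, next to 286 CPM in cluster 1. The clusters called dermal marker clusters below, E16.5 cluster 3 and E14.5 cluster 5, were also highest in the bone markers Alpl and Runx2, 2 of the 3 osteogenic markers with counts, with osteogenic sums of 511 and 425 CPM against at most 379 and 352 CPM in the other clusters of their library, so dermal and bone-forming nuclei cannot be told apart there. No doublet caller was run, and the least count of nuclei in a cluster was 1123, at E12.5.

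The share of collagen genes that differed between clusters was read beside that of all genes. The count with at least 2-fold between the highest and the lowest cluster was 7 of 37 in the E12.5 library (10.6% of all genes), 11 in the next (10.9%) and 26 in the last (22.9%). At E12.5 the count depends on the clustering, with 3 of 37 at 5 clusters (7.88% of all genes). At E16.5 the lowest value lay in cluster 6 for 25 of the 37 genes. How many of all genes were lowest there was not counted, so this is not read as a trait of the collagens. Without that cluster 11 genes passed 2-fold (13.6%). Summed over the 8 fibrillar genes, cluster 3 had 1475 CPM and cluster 6 had 673 CPM. Col3a1 was at 162, 209.8, 282, 98.9, 147 and 68.1 CPM in clusters 1 to 6, a 4.14-fold span (3.86 to 4.44), highest in the dermal marker cluster and low also in the chondrogenic one. Col1a1 was highest in clusters 3 and 5, at 279 CPM in each, and lowest in cluster 6, at 101 CPM. These were the nuclei with dermal (and osteogenic) and with tenogenic markers.

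The widest span of a gene at E16.5 was that of Col22a1, close to that of Col7a1 (5.54-fold). Col22a1 was at 65.5 CPM in cluster 5 and 11.8 to 20.1 CPM in the other 5 clusters, a span of 5.55-fold (4.91 to 6.27). One OCR held most of it: the intronic region shown above, chr15:71926561-71928172, was at 51.3 CPM in cluster 5, with 13.0 CPM in the next cluster and 3.07 CPM in the lowest. The same cluster was highest in Col12a1, at 247 CPM, with chr9:79688885-79691176 at 67.8 CPM against 5.18 CPM in the lowest cluster. It was also highest in Col25a1, at 307 CPM, although Col25a1 as a whole was lower in the E16.5 library than in the others. The Col25a1 region shown above, chr3:130488186-130489769, was at 22.3 CPM there, 3.13 CPM in the next cluster and 0.94 CPM in the lowest, a 23.8-fold span (16.97 to 33.5). Regions of Col23a1, Col13a1, Col5a2 and Col15a1 that were highest in the same cluster spanned 22.4-fold, 13.8-fold, 10.9-fold and 10.3-fold.

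Col7a1 stood out in the dermal marker clusters of both later libraries. It was at 19.7 CPM in cluster 5 of E14.5 against 2.59 to 5.8 CPM in the others, a 7.60-fold span (5.54 to 10.7), and at 31.1 CPM in cluster 3 of E16.5, with 20.6 CPM in cluster 6 and 5.61 CPM in the lowest. Cluster 6 is the one with the epithelial, perineural and Schwann markers. Col14a1 was likewise highest in these clusters, at 193 and 233 CPM, and so were Col4a1, at 200.7 and 294 CPM, and Col23a1, at 366 and 425 CPM.

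Other genes were highest in other nuclei. At E12.5, Col6a6 was at 111.5 CPM in cluster 3 and 34.9 CPM in cluster 4, the one with 5 of 8 chondrogenic markers, and Col6a4 was at 33.1 CPM in cluster 5 and 8.66 CPM in cluster 4. At later stages Col6a6 was highest in E14.5 cluster 3 (184 CPM, against 54.4 CPM in the chondrogenic marker cluster) and in E16.5 clusters 1 and 2 (240.4 and 243 CPM). Col6a5 ran with it, at 43.0 CPM in E14.5 cluster 3 and 49.2 and 50.1 CPM in E16.5 clusters 1 and 2, and was lowest in both dermal marker clusters, at 12.7 and 16.3 CPM. Col28a1 split clusters 1 and 2, at 83.6 and 26.3 CPM. Col27a1 was highest in the chondrogenic marker cluster, at 362 CPM, as were Col8a2, at 135 CPM, and Col16a1, at 124 CPM. In cluster 6, Col17a1 was at 71.9 CPM, Col19a1 at 97.4 CPM, Col4a5 at 15.6 CPM and Col4a6 at 24.4 CPM, the highest value of each, and the summed epithelial markers were at 352 CPM against 84.8 to 119 CPM elsewhere. The part of epithelial cells in these 4 values was not tested.

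**Figure D5:**
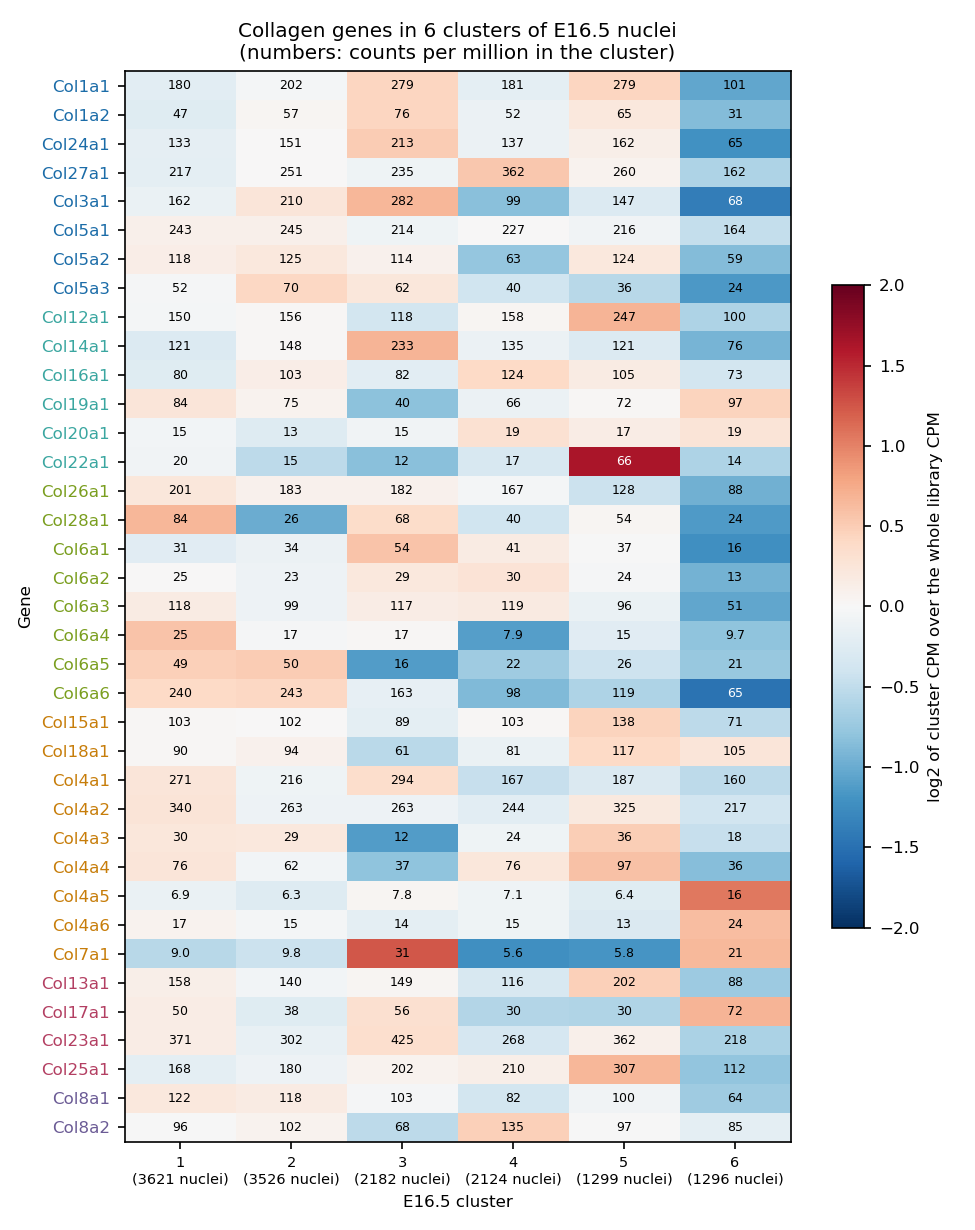
Rows are collagen genes and columns the 6 clusters of the E16.5 library, with the CPM printed in each cell and the colour giving that value relative to the whole library. Red is above the library and blue below, on a log2 scale. Col22a1 is highest in cluster 5 (65.5 CPM) and Col7a1 in cluster 3 (31.1 CPM). Of the collagen genes 25 have their lowest value in cluster 6, a count not taken for all genes.

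At the level of OCRs, the collagen regions that were highest in the dermal marker clusters were compared between the 2 libraries. Of 227 autosomal collagen regions that could be followed in both libraries (at least 5 CPM in the highest cluster of each), 45 were highest in the E14.5 cluster with at least 4-fold over the lowest, or 19.8%, against 10.5% of all 53036 such regions, and 48 were so at E16.5, or 21.1%, against 12.3%. Of these, 38 were in both lists, 84.4% of the first and 79.2% of the second, where over all regions the shares were 79.9% and 68.3%. The overlap was thus near that of the clusters at large. The Col4a1 region chr8:11264709-11266206, shown above, was at 24.9 CPM in the E14.5 cluster and 43.0 CPM in the E16.5 cluster, spans of 59.1-fold and 27.7-fold. The Col5a3 region chr9:20790084-20791029 spanned 22.8-fold and 19.9-fold. The Col14a1 region chr15:55472474-55473141 spanned 40.6-fold and 39.9-fold, and that at chr15:55415634-55419097, shown above, was at 50.6 and 77.2 CPM, with 10.8 to 22.0 and 9.36 to 23.8 CPM in the other clusters. The chondrogenic marker clusters held 24 (10.6%, against 7.31% of all regions) and 15 (6.61%, against 5.67%) collagen regions. Of these, 8 were in both lists, 33.3% and 53.3% of each, near the 37.2% and 48.0% of all regions.

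Regions of a single gene could be open in different nuclei. Col25a1 held the region of cluster 5 given above and another, chr3:130588053-130588768, that was at 10.1 CPM in cluster 3 and 0.42 CPM in the lowest cluster. Over all collagen regions with at least 5 CPM in their highest cluster, 106 of 254 (41.7%), 134 of 242 (55.4%) and 160 of 282 (56.7%) differed 4-fold or more between clusters in the 3 libraries, against 29%, 37.3% and 44.7% of all regions. Those other regions had helped to define the clusters and the collagen regions had not. Nor were they matched to the collagen regions, most of them intronic, for place in a gene. At E16.5, 57 of the 160 (35.6%) were highest in cluster 3 and 7 (4.38%) in cluster 6, where 26.7% and 14.8% of all such regions were. In clusters 1 and 5 the 26 (16.2%) and 35 (21.9%) lay near the shares of all regions, 16.6% and 20%.

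The share of nuclei with a fragment at a gene was also read at equal depth. Each nucleus was thinned to 1074 fragments in the shared regions, which left out 2071, 0 and 252 shallower nuclei. Col1a1 was then seen in 11.9%, 12.01% and 18.4% of nuclei, Col3a1 in 5.90% (exact binomial interval 5.33 to 6.51), 6.71% (6.37 to 7.07) and 15.9% (15.3 to 16.6), Col6a6 in 6.81%, 11.8% and 16.8%, and Col25a1 in 27.7%, 20.5% and 18.3%. For Col3a1, Col6a6 and Col25a1 the order of the stages was that of the CPM, and for Col1a1 the first 2 stages were close in both measures. The thinned shares were worked out from the same counts as the CPM, so this likeness is not a separate check. Thinning also left the called peaks of each library, and their widths, as they were. Before thinning, the shares for Col25a1 were 50.1%, 56.8% and 74.2%, which went with depth and against the CPM.

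Motif matches were counted in 300-base windows, each around the centre of the narrowest peak of an autosomal shared region. AP-1 (TGANTCA) was in 24.1% of the 137 collagen windows that were at least 1.5-fold higher at E16.5 than at E12.5, 15.0% of the 80 that were lower and 6.09% of the 115 others. Over all regions the shares were 17.1%, 12.2% and 10.1%, so AP-1 was also the more common in higher regions at large. The CAGATG E-box was in 47.5% of the 80 lower windows, against 32.8% of all lower regions and 33.4% of all 332 collagen windows. Of the lower collagen regions 24 were of Col25a1 and 11 of Col23a1, and the share was not counted gene by gene. In the 38 collagen regions of both dermal marker clusters CAGATG was found in 52.6% and TEAD (GGAATG) in 36.8%, beside 58.9% and 26.5% of all 4453 regions of those clusters and 29.3% and 21.3% of every region. A high share of CAGATG was therefore shared by the collagen and the other regions of these nuclei. Of the 33 collagen promoters in the RefSeq table, 57.6% held the GC box GGGCGG in the 250 bases before the start, against 32.7% of 32851 promoters, and CCAAT was in 33.3% and 33.8%. A match is a match of letters and says nothing of binding.

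The genes that work with collagens are set beside the shares of all protein-coding genes, 7.31% higher and 8.61% lower between E12.5 and E16.5. Of the cartilage collagens, 1 of 6 was higher (Col11a2, 0.70) and 1 lower (Col9a1, -1.10), with a median log2 ratio of E16.5 over E12.5 of -0.06. Of 32 genes of collagen synthesis and cross-linking, 31 had a value, and 2 were higher and 2 lower, near the shares of all genes. Their median was 0.08, from Pcolce2, an enhancer of procollagen cleavage, at -0.87 to Loxl4, a cross-linking oxidase, at 0.72. Of 10 collagen receptors, 8 had a value and only Ddr2, the kinase that senses fibrillar collagen, was higher (104, 114 and 163 CPM, 0.65), a difference that was not seen per kb of called width (-0.078). The median was 0.17 and the lowest was Itga11 at -0.38. The 15 laminins and other basement membrane partners had 5 higher, 0 lower and a median of 0.13. The highest was Nid1, the link between laminin and type IV collagen, at 26.9, 29.8 and 77.5 CPM (1.53), and the lowest was Nid2 at -0.41. Per kb, 1 of these 15 (Nid1, 0.67), 1 of the synthesis genes (Loxl4, 0.59) and 0 of the cartilage collagens were higher by 1.5-fold, beside 1.6% of all genes, and 1, 7 and 2 were lower, beside 11.8%. The fibrogenic markers, 8 of 9 with a value, had 6 higher, 0 lower and a median of 1.11, and per kb 3 higher, 0 lower and a median of 0.28.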

How the data were processed

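The single-cell ATAC-seq libraries of forelimb at 3 stages, 1 per stage, were deposited by the authors as matrices of counts of transposase cut sites per peak and nucleus, not normalised, with peaks called separately in each library. The authors' methods and processing notes name Cell Ranger ATAC 1.1.0 and mm10. The file headers name software version 1.0.1 for the earlier libraries and 1.2.0 for the E16.5 library, so software version cannot be told apart from stage between E16.5 and the earlier libraries. The 42365 deposited barcodes were used without a further filter, and no doublet caller was run. They are more than the study states.

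Peaks that overlapped by at least 1 bp were merged into 266531 regions, of which 84660 held a peak of every library. Genes were the protein-coding genes of GENCODE vM21 basic. A gene's counts were the cut sites in peaks of shared regions that overlapped its body or the 2000 bp upstream, scaled to 1000000 cut sites in autosomal shared regions. A promoter peak overlapped 1000 bp before to 100 bp after a transcript start. Peaks shared with a neighbouring gene count for both. A region was written as intronic where it overlapped no exon of the gene. The 38 genes, the comparison lists, the markers and the limits of 1.5-fold, 2-fold and 4-fold were chosen with earlier results of these data known. Genes at least 1.5-fold apart between any 2 stages and the classical members of each group were described with the region of most counts and that of the largest ratio. Regions given by cluster were chosen after their values were seen.

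Library totals were 87048167, 204289151 and 413425059 cut sites. Since 73.7 to 77.8% of matrix entries were 2, intervals were set on fragments (cut sites divided by 2). Duplicates and pooling are not covered by them. With 1 library per stage no test was possible, and stages were compared by ratios and by counts of genes past 1.5-fold beside the same share of all genes. The genes and regions set beside the collagens were not matched to them for length, number of regions or place in a gene.

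Nuclei of each library were grouped by k-means into 6 clusters (at least 200 nuclei each) on the components of a TF-IDF matrix that did not follow depth. The overlap, merging and counting steps were tested on simulated data, and the thinning step was not. Python 3.11.15, numpy 2.4.6, pandas 2.3.3, scipy 1.17.1, scikit-learn 1.9.0, pysam 0.24.0 and samtools 1.23.1 were used. Alternatives were all of a library's own peaks, counts per kb of called width, peaks of matched position (50% reciprocal overlap), median-ratio scaling, promoter peaks, peaks that reached no other gene, a binarised matrix, leaving out the deepest 5% of nuclei, 20000 bp upstream, a filter at 10 CPM, and 5 or 8 clusters or another seed.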

Additional observations from a re-analysis of the deposited data

Results flagged for a closer look

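In 5 cases the OCRs at a collagen gene that lay outside the shared regions, which the comparisons do not use, held more counts than those inside. How often this occurs over all protein-coding genes was not counted, so it is not read as a trait of the collagens. At E16.5 these OCRs held 157 CPM in 34 peaks at Col14a1 (146 CPM inside), 84.0 CPM in 14 peaks at Col1a2 (56.1 CPM inside), 33.8 CPM in 6 peaks at Col6a2 (24.7 CPM inside) and 19.2 CPM in 13 peaks at Col4a6 (15.8 CPM inside). At E12.5 the outside OCRs of the same genes held 27.9 CPM at Col14a1 and 3.77 CPM at Col4a6, and Col1a2 and Col6a2 had none. At E14.5, Col10a1 had 2.25 CPM in 1 peak and no OCR inside the shared regions. The part of the deeper sequencing of the E16.5 library in these values was not tested.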

How the results depend on the processing

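Stage, depth and called width cannot be told apart with 1 library per stage. No paired analysis was possible because the stages share no replicate, and none could be left out. Across the alternatives the median log2 ratio of the collagen genes for E14.5 over E12.5 (-0.04) was -0.23 with all of each library's own peaks, 0.41 per kb of called width, -0.19 with median-ratio scaling and 0.091 in promoter peaks. For E16.5 over E14.5 (0.37) it was 0.76 with own peaks, -0.55 per kb, 0.13 in peaks of matched position, 0.54 with median-ratio scaling, 0.11 in promoter peaks, 0.43 in peaks reaching no other gene and 0.30 in the binarised matrix. For E16.5 over E12.5 (0.43) it was 0.71 with own peaks, -0.16 per kb, 0.090 in matched peaks, 0.0065 in promoter peaks and 0.28 in the binarised matrix. Per kb minus the median over all genes, chosen after seeing the data, gave 0.13 and 0.024 for the last 2 comparisons, and leaving out the E16.5 cluster highest in epithelial markers, also chosen after seeing the data, gave 0.41 for E16.5 over E14.5. The count of genes at least 1.5-fold higher at E16.5 than at E12.5 (12) was 22 with own peaks, 2 per kb, 4 in matched peaks and 4 per kb minus the all-gene median. The count lower (2) was 4 in promoter peaks, 1 in the binarised matrix and 1 per kb minus that median. With 5 clusters 3 genes differed 2-fold between clusters at E12.5 (7.88% of all genes, against 7 collagen genes with 6 clusters). At E16.5, 11 did so without cluster 6 and 26 with it.

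Of the genes at least 1.5-fold apart in a comparison, those with the other sign in an alternative were as follows. Genes under 1.5-fold that changed sign, such as Col1a2 per kb and Col22a1 with own peaks, are not listed. The cause was not tested except that division by width is the alternative itself. For E14.5 over E12.5, Col25a1 was at 0.40, Col28a1 at 0.41, Col4a4 at 0.060 and Col6a4 at 0.54 per kb, Col28a1 at 0.16, Col6a4 at 0.11 and Col6a6 at -0.031 in matched peaks, Col19a1 at 0.12 in promoter peaks and Col6a4 at 0.048 per kb minus the median. For E16.5 over E14.5 per kb, Col15a1 was at -0.43, Col17a1 at -0.20, Col1a1 at -0.55, Col20a1 at -1.17, Col3a1 at -0.76, Col4a1 at -0.59, Col4a2 at -0.55, Col5a2 at -0.24, Col6a3 at -0.57, Col6a4 at -0.14 and Col6a6 at -0.25. In the same comparison Col15a1 was at -0.55, Col4a1 at -0.31 and Col4a2 at -0.31 in promoter peaks, Col1a1 at -0.59 in the binarised matrix, Col20a1 at -0.18 in matched peaks, -0.057 with 20000 bp upstream and -0.49 per kb minus the median, and Col3a1 at -0.082 per kb minus the median. For E16.5 over E12.5, Col15a1 was at -0.027, Col20a1 at -0.22, Col4a1 at -0.057 and Col6a1 at -0.029 per kb, Col15a1 at -0.73 and Col4a1 at -0.089 in promoter peaks, Col1a1 at -0.38 in the binarised matrix, where its single wide peak at E16.5 counts once per nucleus, and Col20a1 at -0.032 per kb minus the median. Of the 14 genes called between E12.5 and E16.5, own peaks and leaving out the cluster kept 14 past 1.5-fold in their direction, the binarised matrix 12, 20000 bp upstream 10, promoter peaks 9 of 12 with a value, matched peaks 4 of 10 and per kb 3. Leaving out the deepest 5% of nuclei moved 6 of 111 gene ratios beyond their counting interval and reversed 0.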
